A study of Mus musculus with 5 samples.

Results

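Teprenone given before aspirin was compared with aspirin given after vehicle, by subtracting the log2 expression values of the array named GA+Asp from those of the array named Tep+Asp. These are 2 of the 5 arrays of the study, and each of the 5 groups has 1 array, so there are no replicates, no spread within a group and no test. The animals were healthy males of the outbred ddY stock, 5 weeks old, and the tissue is labelled gut. Every mouse had 2 oral administrations 0.5 h apart, and tissue was taken 4 h after the last. Tep+Asp received teprenone and then aspirin, and GA+Asp received gum arabic, the vehicle, and then aspirin. GA+GA received vehicle on both occasions and is the control, LG21+GA received Lactobacillus gasseri OLL2716 and then vehicle, and LG21+Asp received the same bacterium and then aspirin. No group had teprenone without aspirin. Nothing in the labels tells whether the RNA on an array came from 1 mouse or from several. The question was in which gene groups the pair differs, and for each difference whether Tep+Asp stood apart from the other 4 arrays or GA+Asp did.

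Teprenone, also called geranylgeranylacetone, is an acyclic isoprenoid used as a gastric mucosal protective drug, and it is known for inducing heat shock proteins and for raising mucus in the stomach. Heat shock factor 1 binds heat shock elements in promoters and switches on chaperones such as HSP70, HSP40 and the small heat shock proteins, which hold or refold damaged proteins. Aspirin blocks cyclooxygenases and so lowers the prostaglandins that sustain gastric mucus, bicarbonate and blood flow. Mucus is built from gel-forming mucins, which are heavily glycosylated and are secreted with trefoil peptides. Stromal cells below the epithelium make the matrix and many of the growth factors that act on it.

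The 5 arrays had closely similar medians, between 6.94 and 6.98 on the log2 scale. Among 19938 genes measured by a probe set that names them alone, 26.4% had exactly the same value on Tep+Asp and GA+Asp. A gene was counted as higher or lower at a difference of at least 0.2 log2, which is 1.15-fold. An array was said to stand apart for a gene when it was the highest or lowest of the 5 by a gap of at least 0.1 log2 to the nearest other array. The stomach's own genes were abundant everywhere, with a mean of 12.99 to 13.01 per array over 6 surface and neck cell markers and of 12.27 to 12.29 over 4 parietal cell markers. The mean of 8 enterocyte markers, which define intestine, lay between 7.15 and 7.22, and the sucrase gene Sis was at or near the level of Xist, a gene that male tissue does not express. Markers of cells beyond the glandular mucosa differed most between arrays: the mean of 9 squamous epithelial markers ran from 7.48 on LG21+Asp to 8.84 on Tep+Asp, and that of 8 hepatocyte markers from 6.98 on GA+Asp to 10.48 on GA+GA. The part of such cells in the results was not tested. In a piece of tissue, fewer cells of a type and less RNA per cell cannot be told apart.

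Of the 9969 genes whose mean over the arrays was above 7.41, the median of all genes, 143 were higher in Tep+Asp than in GA+Asp by at least 0.2 and 118 were lower, which is 1.43% and 1.18% of them. At 1.5-fold the counts were 37 and 4, or 0.371% and 0.0401%, and at 2-fold 8 and 1, or 0.0802% and 0.01%. Of the 10 possible pairs of arrays, 1 other pair had fewer genes past 0.2. Among the 143 genes higher in Tep+Asp, Tep+Asp stood apart at 79, GA+Asp stood apart at 48 because it was the lowest array, both did at 2, and neither did at 14. The 79 genes included 22 of the squamous epithelial lists and 15 of the stromal lists, while the 48 included 19 hepatocyte genes. Among the 118 lower genes the balance was the reverse, with 59 where GA+Asp was the highest array by the gap, 19 where Tep+Asp was the lowest, 4 where both held and 36 where neither did. Over all genes, with the weakly measured ones included, 557 were higher and 337 lower, or 2.79% and 1.69%, and of the 557 higher genes GA+Asp stood apart at 284 and Tep+Asp at 202. Which array of the pair stood apart more often among the higher genes thus depended on the level filter. Beyond the pair, Tep+Asp was the highest array by the gap for 299 filtered genes, 3% of them, and the lowest for 68, or 0.682%. GA+Asp was the highest for 349, or 3.5%, and the lowest for 150, or 1.5%. The 349 became 228 after quantile normalization and 216 after cyclic loess, where Tep+Asp was the highest for 265 and 277, so which of the pair was more often the highest array changed with the scaling.

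**Figure D1:**
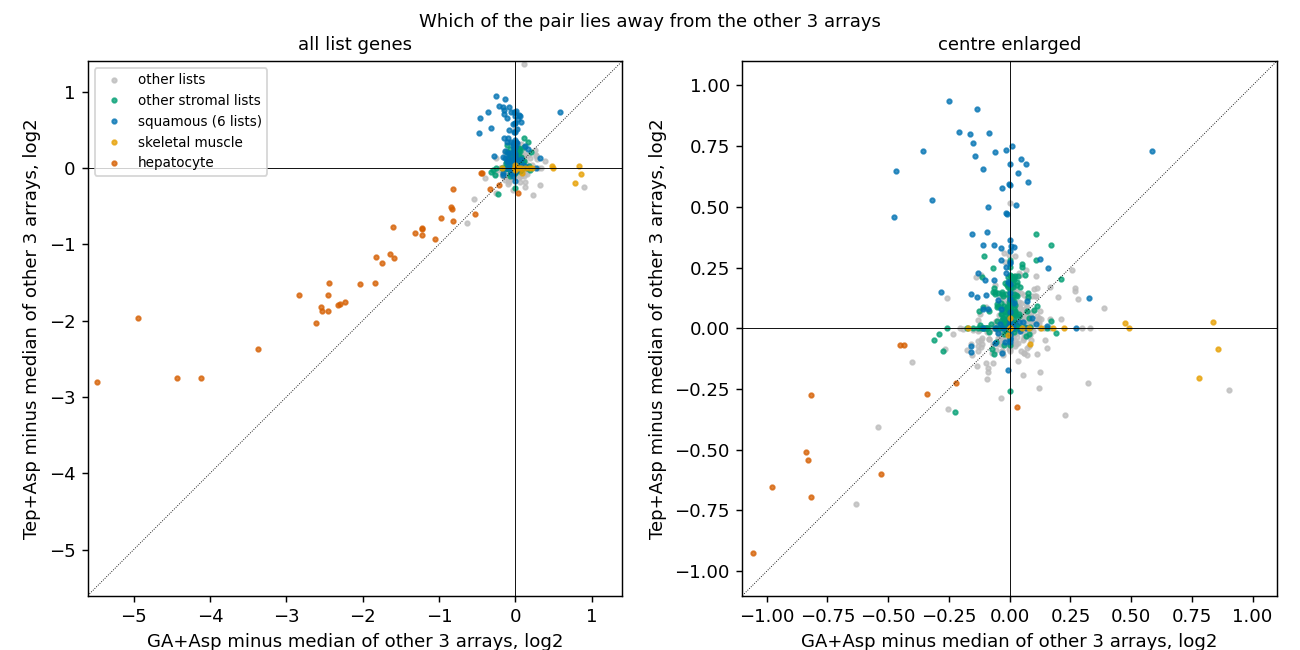
Each point is 1 gene of the lists, drawn at its log2 value on GA+Asp (horizontal) and on Tep+Asp (vertical) after subtracting the median of GA+GA, LG21+GA and LG21+Asp; the right panel enlarges the centre and the dotted line marks equal values. Squamous genes (blue) extend upward, hepatocyte genes (orange-red) extend to the left and down with Tep+Asp less far below than GA+Asp, and skeletal muscle genes (yellow) extend to the right.

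Heat shock genes are the first group teprenone is known for, and here nearly all of them had similar values on both arrays. Of 94 measured genes in 8 lists (chaperones, their helpers, heat shock factors, and endoplasmic reticulum and oxidative stress genes), 1 was higher in Tep+Asp by at least 0.2 and 0 were lower, against 2.79% and 1.69% of all genes. The median difference of the 94 was -0.015 log2, where that of all genes was 0, and it was -0.0028 and 0.00037 after quantile normalization and cyclic loess of the same arrays. Tep+Asp stood apart as the highest array for 3 of the 94, against 2.86% of all genes, and all 3 were small heat shock proteins. Of the 94, 86 passed the level filter. Among all filtered genes 1.43% were higher and 1.18% lower, so counts of 1 and 0 are near those shares. The promoters of 3 heat shock genes whose values follow are shown because they hold letters that match the core of a heat shock element. Each is the stretch of 250 bases upstream of a RefSeq transcript start on GRCm38.p6, with matches to GAANNTTC or TTCNNGAA, the core of a heat shock element, in capitals.

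Hspb1, chr5:135887669-135887918, plus strand: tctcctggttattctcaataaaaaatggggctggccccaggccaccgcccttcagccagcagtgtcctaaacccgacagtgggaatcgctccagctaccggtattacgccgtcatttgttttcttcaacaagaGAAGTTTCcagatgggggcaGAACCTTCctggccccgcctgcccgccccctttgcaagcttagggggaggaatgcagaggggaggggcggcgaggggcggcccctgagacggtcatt

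Hspa1a, chr17:34972157-34972406, minus strand: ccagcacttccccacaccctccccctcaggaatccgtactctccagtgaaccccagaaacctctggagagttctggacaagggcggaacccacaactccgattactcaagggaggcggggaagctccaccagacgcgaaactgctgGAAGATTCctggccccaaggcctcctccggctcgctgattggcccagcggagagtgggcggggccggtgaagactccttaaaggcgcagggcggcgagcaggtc

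Hsph1, chr5:149636337-149636586, minus strand: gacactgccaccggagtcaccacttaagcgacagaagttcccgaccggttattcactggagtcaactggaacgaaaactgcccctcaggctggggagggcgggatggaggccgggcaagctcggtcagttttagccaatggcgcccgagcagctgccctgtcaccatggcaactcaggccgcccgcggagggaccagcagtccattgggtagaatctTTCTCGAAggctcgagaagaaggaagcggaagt

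The core begins 117 and 97 bases before the start of Hspb1, 104 before that of Hspa1a and 33 before the start of Hsph1 used here. Another RefSeq start of Hsph1 has the core 54 bases before it. Such a match was present in 12.8% of the 32851 RefSeq promoter windows of this length, and it describes letters and not binding. Dnajb1 and Bag3 had 0 matches in their windows. For Hspb6, the window of a RefSeq start had 1 match and that of another start had 0.

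The values that follow are log2 levels on 5 arrays, always in this order: the control GA+GA, then LG21+GA, then GA+Asp, then Tep+Asp, and last LG21+Asp. Hspb1, the small heat shock protein HSP25, measured 10.41, 10.37, 10.40, 10.71 and 10.41. Tep+Asp was above the other 4 arrays, which lay within 0.1 of each other, and its difference from GA+Asp was 0.30, or 1.23-fold. Cryab, the small heat shock protein alpha B crystallin, measured 9.21, 9.21, 9.21, 9.34 and 9.03, a difference of 0.13. Hspb7, found mainly in muscle, measured 8.03, 7.99, 8.14, 8.25 and 8.14. Tep+Asp was the highest array for both, while the other 4 were not equal for either gene. Hspb6, another muscle small heat shock protein, measured 9.81, 9.74, 9.73, 9.83 and 9.61, where Tep+Asp was 0.10 above GA+Asp and close to GA+GA.

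The inducible HSP70 gene Hspa1a, whose promoter is shown above, measured 8.18, 8.22, 8.22, 8.28 and 8.22, so Tep+Asp was the highest array by 0.06, and the difference from GA+Asp was 0.06. Hspa8, the constitutive HSP70, measured 12.66, 12.63, 12.65, 12.63 and 12.59. Hsph1, the exchange factor HSP110, measured 8.55, 8.48, 8.57, 8.63 and 8.55. None of these reached the gap of 0.1. Across the 12 measured HSP70 genes the median difference was 0.045, with a range from -0.045 to 0.14. Of the 12, 8 were above 0 and 4 below, where 34.6% of all genes were above 0 and 39% below. After either rescaling 9 were above 0 and 3 below. Tep+Asp was the highest array for 6 and the lowest for 0, against 14.3% and 14.4% of all genes. It was the highest by the gap for 0, against 2.86%, and 0 genes were past 0.2, against 4.48% in either direction. Hsp90aa1, the inducible HSP90, measured 11.34, 11.26, 11.34, 11.37 and 11.34. Dnajb1, the inducible HSP40 that feeds substrates to HSP70, measured 8.28, 8.37, 8.34, 8.32 and 8.31, with Tep+Asp inside the range of the others. The inducible HSP70 gene Hspa1b and the factor Hsf1 have no probe set that names them alone and are not analysed here.

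The cytosolic and mitochondrial folding machines were also close between the arrays. Cct3, a subunit of the cytosolic chaperonin that folds actin and tubulin, had the largest difference of the 10 chaperonin genes and measured 9.65, 9.66, 9.72, 9.54 and 9.62, which is -0.18 for the pair. Hspd1, the mitochondrial chaperonin HSP60, measured 10.85, 10.78, 10.85, 10.86 and 10.85. Cdc37, which brings kinases to HSP90, measured 8.87, 8.97, 8.93, 8.76 and 8.87 and was the only heat shock gene for which Tep+Asp was the lowest array by the gap, as it was for 1.77% of all genes. The 13 chaperones of the endoplasmic reticulum had a median of -0.029, and their central member Hspa5, also called BiP, measured 11.55, 11.47, 11.61, 11.53 and 11.49. All 14 oxidative stress and thioredoxin genes were below 0, with a median of -0.06. None was past 0.2, where 4.48% of all genes were past it in either direction. Among all filtered genes, 51.8% were below 0 and 28.9% above. After either rescaling 9 of the 14 were below 0 and 5 above, so the common sign did not hold under another scaling. Hmox1, the heme oxygenase of the oxidative stress response, measured 8.52, 8.38, 8.72, 8.65 and 8.53 and was highest on GA+Asp.

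**Figure D2:**
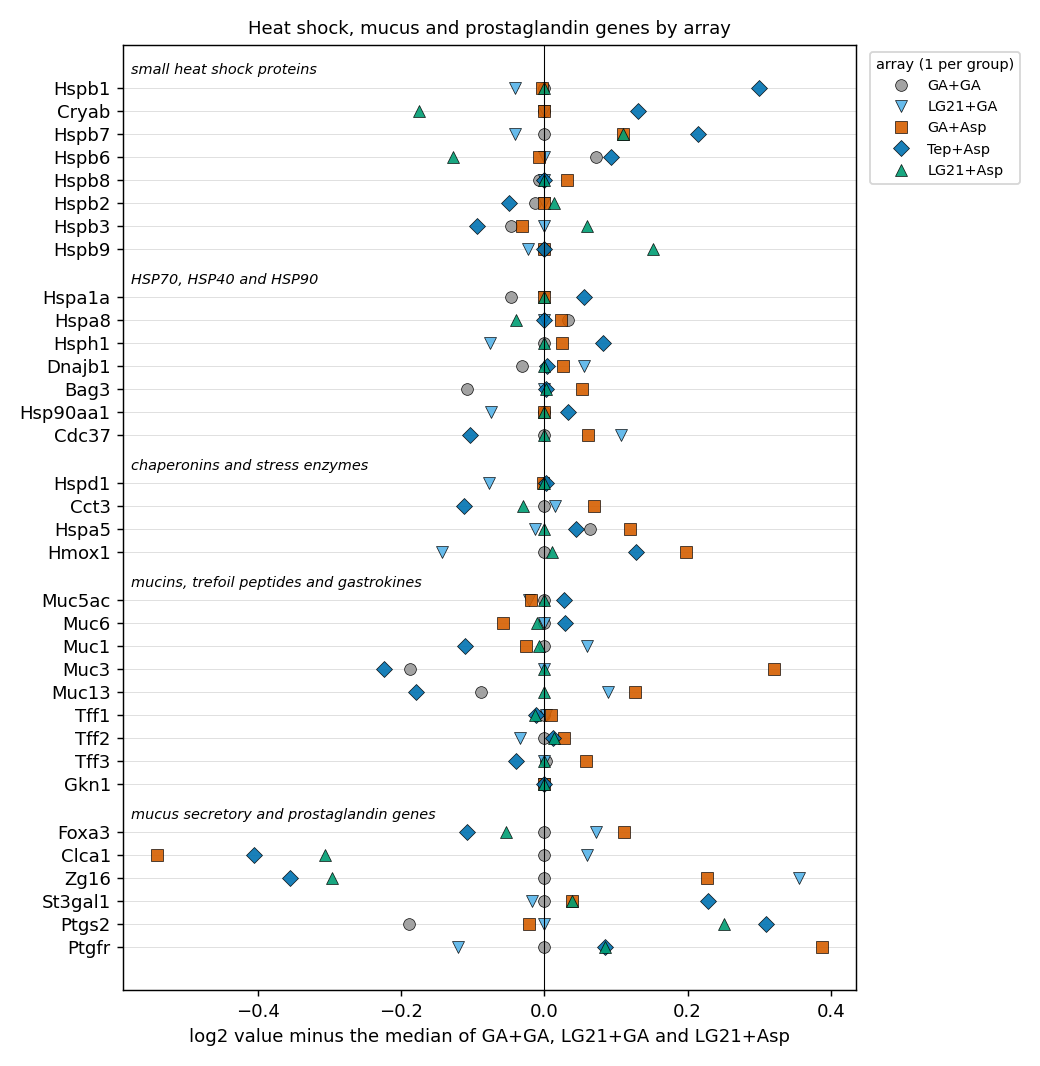
Log2 value of each gene on the 5 arrays after subtracting the median of GA+GA, LG21+GA and LG21+Asp, with 1 marker per array and no error bars because each group has 1 array. Hspb1 on Tep+Asp lies to the right of the other 4 arrays, Zg16 and Clca1 spread most widely, and most other genes lie close to 0 on every array.

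Mucus genes made up 94 measured genes in 6 lists, of which 2 were higher in Tep+Asp by at least 0.2 and 8 lower, or 2.13% and 8.51% against 2.79% and 1.69% of all genes, with a median of 0. The abundant gastric members were nearly equal on all arrays. Muc5ac, the gel-forming mucin of surface cells, measured 13.32, 13.29, 13.30, 13.34 and 13.32. Muc6, the gel-forming mucin of neck and gland cells, measured 11.72, 11.72, 11.66, 11.75 and 11.71. Both were highest on Tep+Asp by less than 0.1, and the differences from GA+Asp were 0.05 and 0.09. Muc1, a membrane mucin, measured 12.22, 12.28, 12.19, 12.11 and 12.21, where Tep+Asp was the lowest array. The trefoil peptides Tff1 and Tff2, which are co-secreted with mucins and aid repair, differed by -0.02 and -0.02, and the gastrokine Gkn1 measured 13.28, 13.28, 13.28, 13.28 and 13.28. Values this close to the top of the measured range, 13.87, may respond little to a change in RNA, which was not tested.

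The mucins past 0.2 were all weakly measured, and 9 of the 13 mucin genes failed the level filter. Muc3, an intestinal membrane mucin, measured 5.03, 5.22, 5.54, 4.99 and 5.22, Muc16 measured 5.03, 5.03, 5.33, 5.03 and 5.03 and Muc13 measured 6.15, 6.33, 6.37, 6.06 and 6.24. For Muc3 and Muc16 the highest array was GA+Asp, which stood apart, and Tep+Asp was at or near the remaining arrays. Muc20, a membrane mucin, measured 7.21, 7.21, 7.27, 7.02 and 7.22 and was lowest on Tep+Asp, and Muc15, another, measured 5.45, 5.45, 5.31, 5.66 and 5.28 and was highest on it. Foxa3, a transcription factor of mucous and goblet cells, was the 1 mucus gene above the level filter that was lower by 0.2, and it measured 9.68, 9.75, 9.79, 9.57 and 9.63. Zg16, a goblet cell protein that binds bacteria, measured 6.54, 6.89, 6.76, 6.18 and 6.24, with Tep+Asp and LG21+Asp both low. The 25 glycosylation genes had 0 members past 0.2, where 4.48% of all genes were past it in either direction. Their largest difference, at St3gal1, a sialyltransferase that caps mucin-type glycans, was 0.19, with values of 8.26, 8.24, 8.30, 8.49 and 8.30. Clca1, which is secreted with mucus, measured 8.66, 8.72, 8.12, 8.26 and 8.36, where GA+Asp was the lowest array and Tep+Asp lay 0.14 above it, below the arrays without aspirin.

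Of 17 prostaglandin genes, Ptgs2 was higher by 0.2 and Ptgfr lower, as 2.79% and 1.69% of all genes were. Ptgs2, the inducible cyclooxygenase COX-2, measured 7.74, 7.93, 7.91, 8.24 and 8.18. Tep+Asp and LG21+Asp were the 2 highest arrays, 0.06 apart, and GA+Asp was at the level of LG21+GA, so Tep+Asp did not stand apart by the gap of 0.1. Ptgfr, the receptor of prostaglandin F2 alpha, measured 7.28, 7.16, 7.67, 7.36 and 7.36, with GA+Asp the highest array. Ptgs1, the constitutive cyclooxygenase, has no probe set that names it alone and is not analysed here. Slc26a3, a chloride bicarbonate exchanger, was the 1 of 15 ion and water transport genes past 0.2, or 6.67%, where 4.48% of all genes were past it in either direction. It measured 5.15, 5.15, 5.48, 5.15 and 5.15, with GA+Asp alone high and with all values near the level of Xist.

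Stromal genes differed in small steps that mostly ran the same way. In the 12 stromal lists, 19 of 233 genes were higher in Tep+Asp by 0.2 and 8 were lower, or 8.15% and 3.43% against 2.79% and 1.69% of all genes. Tep+Asp was the highest array by the gap for 50 of the 233, or 21.5%, where it was for 2.86% of all genes. GA+Asp stood apart as the lowest for 13 of them, where it was for 4.64% of all genes, and as the highest for 11, where it was for 2.88%. The median over the 233 was 0.047 in the deposited values and 0.053 and 0.058 after quantile normalization and cyclic loess. Beside these values, the mean of 8 fibroblast markers was 9.94 on Tep+Asp and between 9.73 and 9.76 on the others, and none of the 8 was below the level of Xist. Whether the tissue on Tep+Asp held more stroma was not tested.

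The fibrillar collagens, which form the tensile fibers of connective tissue, were among the clearest. Col3a1 measured 9.60, 9.64, 9.61, 9.86 and 9.60, Col1a1 measured 9.97, 10.09, 10.04, 10.26 and 10.05 and Col1a2, which assembles with Col1a1, measured 9.79, 9.89, 9.87, 10.05 and 9.85. For all 3 genes Tep+Asp stood apart and GA+Asp was inside the range of the remaining arrays. The differences were 0.25, 0.22 and 0.18, or 1.19-fold at most. Lox, the oxidase that crosslinks collagen and elastin, measured 8.93, 8.79, 8.96, 9.18 and 8.91. Of the 16 genes of fibrillar collagens and their processing, 3 were higher by 0.2 and 6 were highest on Tep+Asp by the gap. These counts stand against 2.79% and 2.86% of all genes, and the median of the 16 was 0.093. The hydroxylase subunit P4ha2 was the exception below 0, at -0.10. All 11 other collagens were above 0 under each of the 3 scalings, and 2 of them were past 0.2: Col6a1, a beaded filament collagen, at 0.20, and the weakly measured Col10a1, which GA+Asp set apart as the lowest array with values of 6.30, 6.32, 6.03, 6.30 and 6.46.

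Among the stromal lists, matrix glycoproteins and proteoglycans had the most members at which Tep+Asp was the highest array by the gap, 13 of 26, against 2.86% of all genes. The median of this list was 0.12, and 4 of its genes were higher by 0.2, against 2.79% of all genes. Vcan, the large proteoglycan versican, measured 7.66, 7.66, 7.59, 7.91 and 7.66, a difference of 0.32. Thbs1, thrombospondin 1, measured 9.50, 9.33, 9.50, 9.78 and 9.51, and Lum, the collagen-binding proteoglycan lumican, measured 7.90, 7.90, 7.90, 8.11 and 7.76. In each of these 3 the other 4 arrays lay below Tep+Asp by more than the gap. Fn1, fibronectin, measured 11.34, 11.27, 11.21, 11.41 and 11.21 and just reached 0.2, but GA+GA was within 0.1 of Tep+Asp. Efemp1, fibulin 3, went the other way at -0.14, with GA+Asp the highest array. The basement membrane genes Col4a2 and Nid1, a network collagen and a laminin linker, were higher by 0.21 and 0.21, and 0 of the 20 basement membrane genes were below 0, which became 4 after quantile normalization and 1 after cyclic loess. Among 20 matrix proteases and inhibitors, Mmp2, the gelatinase of fibroblasts, measured 9.81, 9.88, 9.81, 10.05 and 9.88 and was higher by 0.23, while the weakly measured Timp4 was lower by 0.2 with values of 6.57, 6.75, 6.57, 6.32 and 6.45.

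The cell type lists showed how far the same pattern reached. Pdgfra, the platelet-derived growth factor receptor that marks fibroblasts, measured 9.28, 9.31, 9.21, 9.61 and 9.35, with Tep+Asp 0.26 above the next array and 0.40 above GA+Asp, the largest stromal difference upward. Of 25 fibroblast genes 2 were higher by 0.2, against 2.79% of all genes: Pdgfra and Foxf2, a transcription factor of gut mesenchyme. Tep+Asp stood apart as the highest array at 5 of the 25, against 2.86% of all genes. All 20 smooth muscle and pericyte genes were above 0, with a median of 0.063, and stayed so after both rescalings. Myh11, the smooth muscle myosin heavy chain, measured 11.60, 11.62, 11.55, 11.77 and 11.66, and Abcc9, a potassium channel subunit of pericytes, measured 8.62, 8.61, 8.73, 9.01 and 8.75. Both were highest on Tep+Asp by the gap. The most abundant smooth muscle gene of the list, Acta2, differed by 0.002. Of 28 endothelial genes 0 were past 0.2 and 5 were highest on Tep+Asp by the gap, against 4.48% and 2.86% of all genes. Cd93, a surface protein of endothelium, led them with 8.98, 8.94, 8.97, 9.15 and 9.0004. Among 18 macrophage and dendritic cell genes, Mrc1, the mannose receptor, measured 8.05, 8.08, 7.93, 8.26 and 7.95, with Tep+Asp the highest array by 0.18. The pan-macrophage gene Csf1r differed by 0.03.

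Skeletal muscle genes, by contrast, were set apart by the aspirin-alone array. Of 17 such genes, 6 were lower in Tep+Asp by 0.2 and 0 were higher, against 1.69% and 2.79% of all genes, with a median of -0.13. GA+Asp was the highest array by the gap for 8, against 2.88% of all genes. Acta1, skeletal alpha actin, measured 7.94, 7.85, 8.74, 7.93 and 7.90. Ckm, muscle creatine kinase, measured 8.08, 8.08, 8.56, 8.10 and 8.10, and Myh1, a fast myosin heavy chain, measured 5.28, 5.15, 6.06, 5.08 and 5.30. Tep+Asp was within 0.1 of the nearest of the 3 arrays other than GA+Asp in all of these. Of the 17 genes, 4 passed the level filter, and Myh1 did not. The mean of 6 skeletal muscle markers was 7.35 on GA+Asp and between 6.94 and 6.97 on the other 4 arrays. Of 18 genes of enteric neurons and glia 1 was past 0.2, or 5.56%, where 4.48% of all genes were past it in either direction. Vip, a neuropeptide, was this gene and was lower, with values of 7.86, 7.95, 8.15, 7.93 and 7.95 and GA+Asp the highest array.

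**Figure D3:**
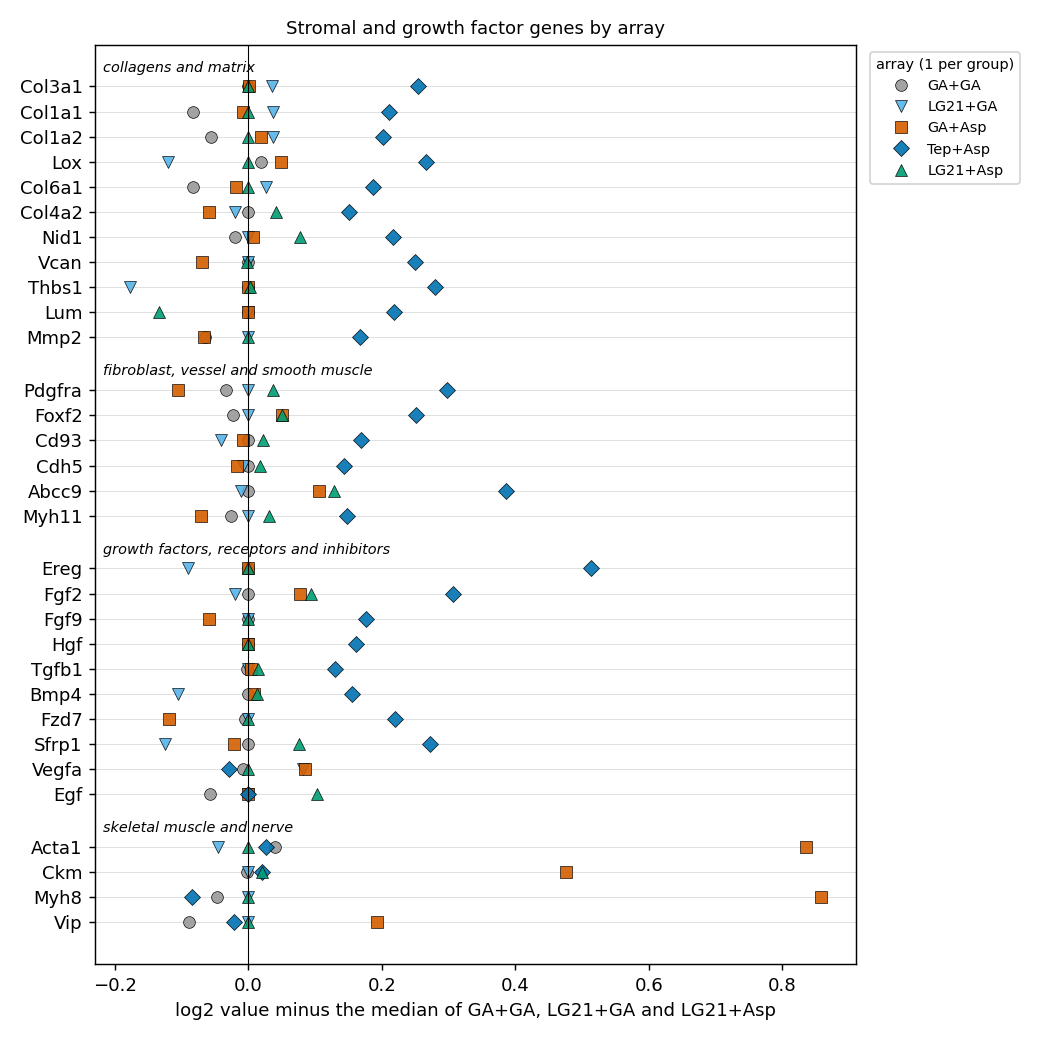
Log2 value of stromal and growth factor genes on the 5 arrays after subtracting the median of GA+GA, LG21+GA and LG21+Asp, with 1 marker per array. Tep+Asp (diamonds) lies to the right for most matrix genes, Pdgfra and Ereg, while GA+Asp (squares) lies to the right for Acta1, Ckm, Myh8 and Vip.

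Growth factor genes were 185 in 10 lists, and 9 were higher in Tep+Asp by 0.2 and 0 lower, or 4.86% against 2.79% of all genes. The proliferation list held 3 of the 9, and 1 more was Pdgfra, which the fibroblast list also holds. Tep+Asp stood apart as the highest array for 20 of the 185, or 10.8%, against 2.86%. Among epithelial ligands, Ereg, epiregulin, which activates the EGF receptor, measured 7.15, 7.06, 7.15, 7.67 and 7.15. The other 4 arrays were within 0.1 of each other and Tep+Asp was 0.51 above GA+Asp, or 1.43-fold, although the mean of the gene lay below the level filter. The other EGF family ligands were close: Egf measured 7.05, 7.11, 7.11, 7.11 and 7.21, Tgfa measured 8.90, 8.89, 8.86, 8.85 and 8.90 and Hbegf measured 8.12, 8.05, 8.10, 8.10 and 8.10. None differed by 0.1 for the pair, and the receptor Egfr differed by 0.02. Areg, another ligand, has no probe set that names it alone and is not analysed here.

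Mesenchymal and vascular factors gave small differences in both directions. Fgf2, basic fibroblast growth factor, measured 7.17, 7.15, 7.25, 7.48 and 7.27, and Fgf9, which signals to mesenchyme, measured 7.36, 7.36, 7.30, 7.54 and 7.36. Both stood apart on Tep+Asp and both were weakly measured. Hgf, a stromal ligand that acts on epithelium, measured 7.24, 7.24, 7.24, 7.40 and 7.24, so only Tep+Asp left a common value. The mean of Hgf also lay below the level filter. Vegfa, the main angiogenic ligand, was -0.11 for the pair, with values of 9.46, 9.55, 9.55, 9.44 and 9.47, and Tep+Asp was the lowest array. Igf1 measured 9.05, 8.85, 8.81, 8.82 and 8.75 and was highest on GA+GA. Igfbp5, an IGF binding protein, measured 9.97, 9.94, 9.96, 10.15 and 9.89 and was highest on Tep+Asp. Of 25 TGF beta, activin and BMP genes 0 were past 0.2 and 6 were highest on Tep+Asp by the gap, against 4.48% and 2.86% of all genes. Among those 6, Tgfb1 measured 8.30, 8.30, 8.30, 8.43 and 8.31, Bmp4 measured 9.66, 9.56, 9.67, 9.82 and 9.68 and the co-receptor Tgfbr3 measured 9.02, 9.03, 9.10, 9.27 and 9.13.

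Of 30 Wnt pathway genes, Fzd7, a Wnt receptor, measured 8.13, 8.14, 8.02, 8.36 and 8.14, and Sfrp1, a secreted inhibitor, measured 10.25, 10.12, 10.23, 10.52 and 10.32. Tep+Asp stood apart at both, and at Fzd7 GA+Asp also stood apart as the lowest array. The stem cell receptor Lgr5 and the target Axin2 differed by less than 0.1 for the pair. No immediate early gene of 23 was past 0.2, where 4.48% of all genes were past it in either direction. Egr1, a transcription factor induced by growth signals, came nearest with 8.36, 8.36, 8.17, 8.36 and 8.43, where GA+Asp was the lowest array and Tep+Asp equalled GA+GA. The last of the growth lists held 19 proliferation genes. GA+Asp was the lowest of the 5 arrays for 11 of them, against 18% of all genes, and the lowest by the gap for 6, against 4.64%. Tep+Asp was the highest for 0, against 14.3%. Mki67, a marker of cycling cells, measured 9.05, 8.88, 8.67, 8.88 and 8.81, Ccna2, cyclin A2, measured 9.12, 8.85, 8.61, 8.82 and 8.77 and Rrm2, a subunit of ribonucleotide reductase, measured 7.65, 7.49, 7.22, 7.49 and 7.62. In all 3 genes GA+GA was the highest array, and Tep+Asp lay between GA+Asp and GA+GA.

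Epithelial genes held the largest differences of the comparison, in 2 sets with different patterns. Of 285 genes in 16 lists, 83 were higher in Tep+Asp by 0.2 and 7 lower, against 2.79% and 1.69% of all genes. Tep+Asp was the highest array by the gap for 53 of the 285, against 2.86% of all genes, and GA+Asp the lowest for 38, against 4.64%. The 53 were mostly genes of stratified squamous epithelium, and 33 of the 38 were hepatocyte genes. The mouse stomach has a squamous forestomach beside its glandular part, and cells there pass from a basal layer with Krt5 and Krt14 to differentiated layers with Krt1 and Krt10 and finally a cornified envelope. The promoter of loricrin, an envelope protein, is known to carry an AP-1 site. The windows of 2 genes of the cornified envelope list follow, shown because they held a match to TGANTCA. Each covers 250 bases upstream of the start on GRCm38.p6 (RefSeq), with the match in capitals.

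Lor, chr3:92083143-92083392, minus strand: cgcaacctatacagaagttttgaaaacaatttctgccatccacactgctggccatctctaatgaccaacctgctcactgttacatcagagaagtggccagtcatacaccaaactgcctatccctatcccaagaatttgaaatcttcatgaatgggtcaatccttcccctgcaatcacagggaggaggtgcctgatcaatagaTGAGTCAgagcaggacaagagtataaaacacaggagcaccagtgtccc

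Krtdap, chr7:30787655-30787904, plus strand: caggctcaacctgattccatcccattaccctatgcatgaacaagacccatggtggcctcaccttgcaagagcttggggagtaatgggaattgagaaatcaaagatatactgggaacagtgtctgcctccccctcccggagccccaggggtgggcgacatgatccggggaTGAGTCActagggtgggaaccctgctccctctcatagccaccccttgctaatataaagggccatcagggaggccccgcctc

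The match begins 48 bases before the start of Lor and 81 before that of Krtdap, and 6.75% of all RefSeq windows held one. The windows of Krt10, Krt5, Elovl4 and Lce1e had 0 matches.

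Among the squamous genes, the basal keratin Krt5 measured 8.58, 8.54, 8.07, 8.999 and 7.58 and its partner Krt14 measured 7.09, 7.01, 6.86, 7.40 and 6.77. The suprabasal keratin Krt1 measured 10.14, 10.25, 9.67, 10.79 and 8.66 and its partner Krt10 measured 10.37, 10.58, 10.02, 11.11 and 9.09. All 4 were highest on Tep+Asp by the gap and lowest on LG21+Asp, and the difference for Krt1 was 1.12, or 2.17-fold. GA+Asp lay below both arrays without aspirin for all 4, so the distance of the pair was larger than that between Tep+Asp and the control. The keratins of the esophageal type, Krt4 and Krt13, differed less, by 0.14 and 0.16, with values of 8.88, 8.36, 8.95, 9.09 and 6.87 for Krt4.

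The cornified envelope list had 23 of 35 genes higher by 0.2 and 2 lower, against 2.79% and 1.69% of all genes, with a median of 0.32. Tep+Asp was the highest array by the gap for 24, against 2.86% of all genes. Lor, loricrin, the bulk protein of the envelope, measured 9.38, 9.42, 9.32, 10.11 and 7.68. Krtdap, a secreted peptide of differentiating keratinocytes, measured 9.72, 9.68, 9.52, 10.44 and 7.89, and Hrnr, hornerin, measured 9.30, 9.50, 9.16, 10.01 and 8.01. Each was 0.72 or less above the next array, and LG21+Asp was the lowest by more than 1 log2 unit in each. The late cornified envelope genes were led by Lce1e at 1.04, but members of this family are near copies whose probes may not tell them apart. The 2 genes lower by 0.2 were Lce3a and Lce3c, with values of 7.59, 7.51, 7.83, 7.63 and 6.75 for Lce3c, and GA+Asp was the highest array for both. The most abundant gene of the list, Sprr1a, a small proline-rich envelope precursor, measured 12.50, 12.22, 12.51, 12.60 and 12.50. Of the 35 genes of the list, 16 passed the level filter.

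Proteases and their inhibitors in this epithelium gave 10 of 18 genes higher by 0.2, against 2.79% of all genes, and a median of 0.30. Of the 18, 5 passed the level filter. Spink5, an inhibitor of skin kallikreins, measured 7.73, 7.85, 7.48, 8.67 and 6.70, the largest difference of the squamous genes at 1.19, or 2.28-fold. Serpinb12, an epithelial serpin, measured 7.95, 7.95, 7.95, 8.63 and 5.92, so that 3 arrays were equal, Tep+Asp was above and LG21+Asp far below. Elovl4, which makes very long chain fatty acids for the barrier, measured 7.84, 8.04, 7.63, 8.65 and 7.16, and the lipid transporter Abca12 measured 6.91, 6.91, 6.80, 7.56 and 6.33. These 2 headed the list of barrier lipid enzymes, of which 5 of 17 were higher by 0.2, against 2.79% of all genes. The median of that list was 0.0066. The transcription factors of squamous epithelium, 12 genes with Trp63 among them, had a median of 0. They had 0 past 0.2, where 4.48% of all genes were past it in either direction. The desmosome list had 3 of 17 higher by 0.2, against 2.79% of all genes, and a median of 0. Against the median of GA+GA, LG21+GA and LG21+Asp, the median cornified envelope gene was 0.33 on Tep+Asp and -0.016 on GA+Asp.

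LG21+Asp shares the GA+Asp array as its comparator, so its values are set beside these without a test. For the cornified envelope list, LG21+Asp minus GA+Asp had a median of -0.44 with 26 genes lower by 0.2 and 2 higher, where Tep+Asp had 23 higher. For the hepatocyte list its median was 1.04 with 37 of 38 higher, where Tep+Asp had a median of 0.50 and 32 higher. For the matrix glycoprotein list it was 0, with 0 higher and 1 lower. Over all genes, 4.24% were higher and 2.34% lower in LG21+Asp than in GA+Asp.

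**Figure D4:**
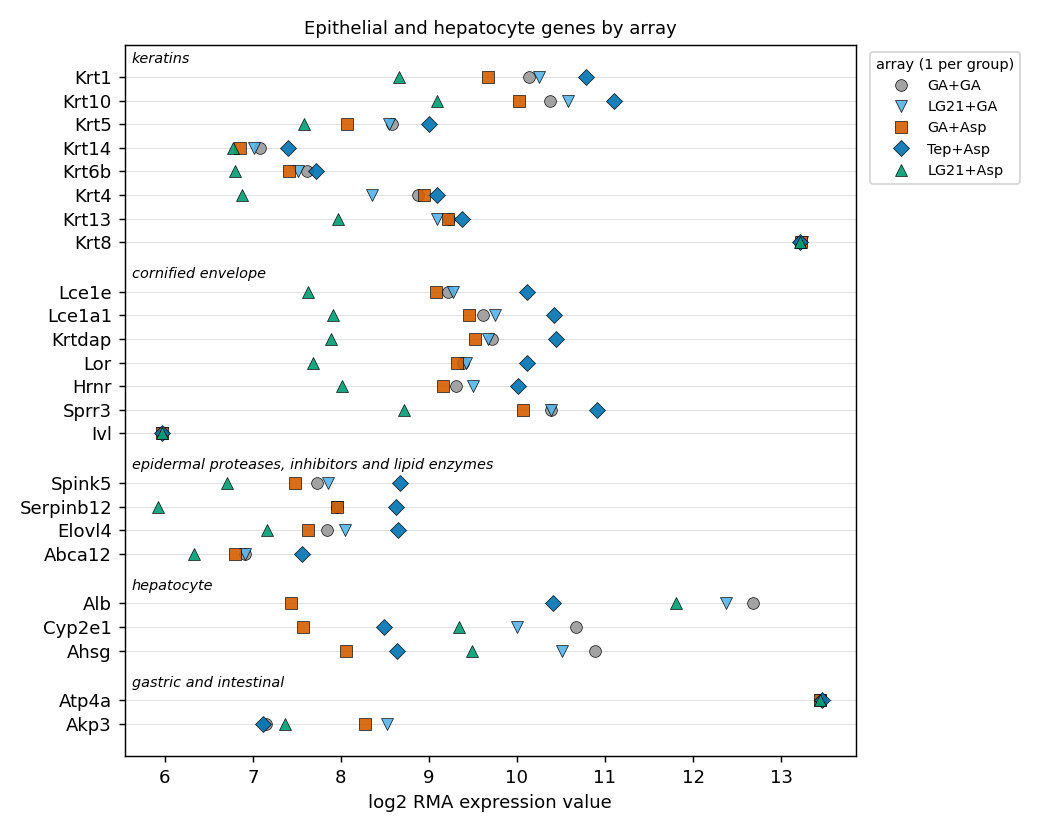
Log2 expression values of epithelial and hepatocyte genes on the 5 arrays, with 1 marker per array. Squamous genes such as Krt1, Lor and Spink5 are highest on Tep+Asp and lowest on LG21+Asp, Alb, Cyp2e1 and Ahsg are lowest on GA+Asp, and Atp4a is the same to within 0.1 on all 5.

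Hepatocyte genes had the largest differences of all, and here GA+Asp was the array that stood apart. Of 38 measured genes 32 were higher in Tep+Asp by 0.2 and 1 was lower, against 2.79% and 1.69% of all genes. GA+Asp was the lowest array by the gap for 33, against 4.64% of all genes, while Tep+Asp was the highest for 0, against 2.86%. Alb, albumin, measured 12.69, 12.37, 7.43, 10.41 and 11.80, the largest difference of any gene at 2.98. Cyp2e1, a cytochrome P450 of liver, measured 10.68, 10.01, 7.56, 8.49 and 9.35, Cps1, an enzyme of the urea cycle, measured 9.55, 8.70, 6.15, 6.88 and 7.95 and Apoc3, an apolipoprotein, measured 9.76, 9.04, 7.02, 7.65 and 8.37. GA+GA was the highest array in all 4, and Tep+Asp was the next to lowest. Against the median of GA+GA, LG21+GA and LG21+Asp, the median hepatocyte gene was -1.17 on Tep+Asp and -1.69 on GA+Asp. Both aspirin arrays of the pair were thus below the rest, and the pair differed because GA+Asp was further below. The 1 gene lower by 0.2 was Ttr, transthyretin, which measured 11.11, 10.997, 11.04, 10.69 and 11.01 and did not follow the other hepatocyte genes across the arrays. Serpina1c, an alpha 1 antitrypsin, measured 10.31, 9.39, 3.91, 6.58 and 8.11. Its value on GA+Asp was below that of Xist, so no fold is given, and it belongs to a family of near copies.

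Marker genes of the glandular stomach differed little between the arrays. None of 15 surface and neck cell genes, 15 genes of the parietal cell list, 9 chief cell genes and 20 endocrine cell genes was past 0.2. Of all genes 4.48% were past it in either direction, and of filtered genes 2.62%. A count of 0 in lists of 9 to 20 genes is near these shares. The parietal cell list held the hormone gene Sst. GA+Asp stood apart for 3 of the 9 chief cell genes, as the lowest array for 2 and the highest for 1, against 4.64% and 2.88% of all genes. Atp4a, the catalytic subunit of the parietal proton pump, measured 13.45, 13.44, 13.45, 13.47 and 13.45. Cym, chymosin, a milk-clotting protease, measured 13.02, 13.03, 12.75, 12.93 and 12.88 and came nearest to 0.2, with GA+Asp the lowest array. Bhlha15, the chief cell factor MIST1, measured 9.86, 9.72, 10.14, 9.98 and 9.88, with GA+Asp the highest. The hormone genes Ghrl, ghrelin, and Sst, somatostatin, differed by -0.07 and 0.06.

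Among 25 enterocyte genes 4 were lower by 0.2 and 0 higher, against 1.69% and 2.79% of all genes. Akp3, an intestinal alkaline phosphatase of the duodenum, measured 7.15, 8.52, 8.27, 7.12 and 7.37, the largest difference downward of the filtered genes at -1.16. It was high on LG21+GA and GA+Asp and low on the remaining 3 arrays, so neither array of the pair stood apart. Alpi, a near copy of Akp3 whose probes may share its signal, measured 7.13, 7.77, 7.37, 7.01 and 7.25. Rbp2, a retinol binding protein of villus cells, measured 10.03, 10.04, 10.18, 9.95 and 9.90, with GA+Asp the highest. Vil1, a brush border protein, and Cdx2, an intestinal transcription factor, differed by 0.03 and 0.03. Scgb1a1, a secretoglobin of airway club cells, had a large difference outside these cell types. It measured 5.73, 6.11, 5.84, 7.09 and 5.58 and was highest on Tep+Asp by 0.99, below the level filter, while Foxj1, which defines ciliated cells, measured 5.75, 5.89, 5.89, 5.89 and 5.89.

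**Figure D5:**
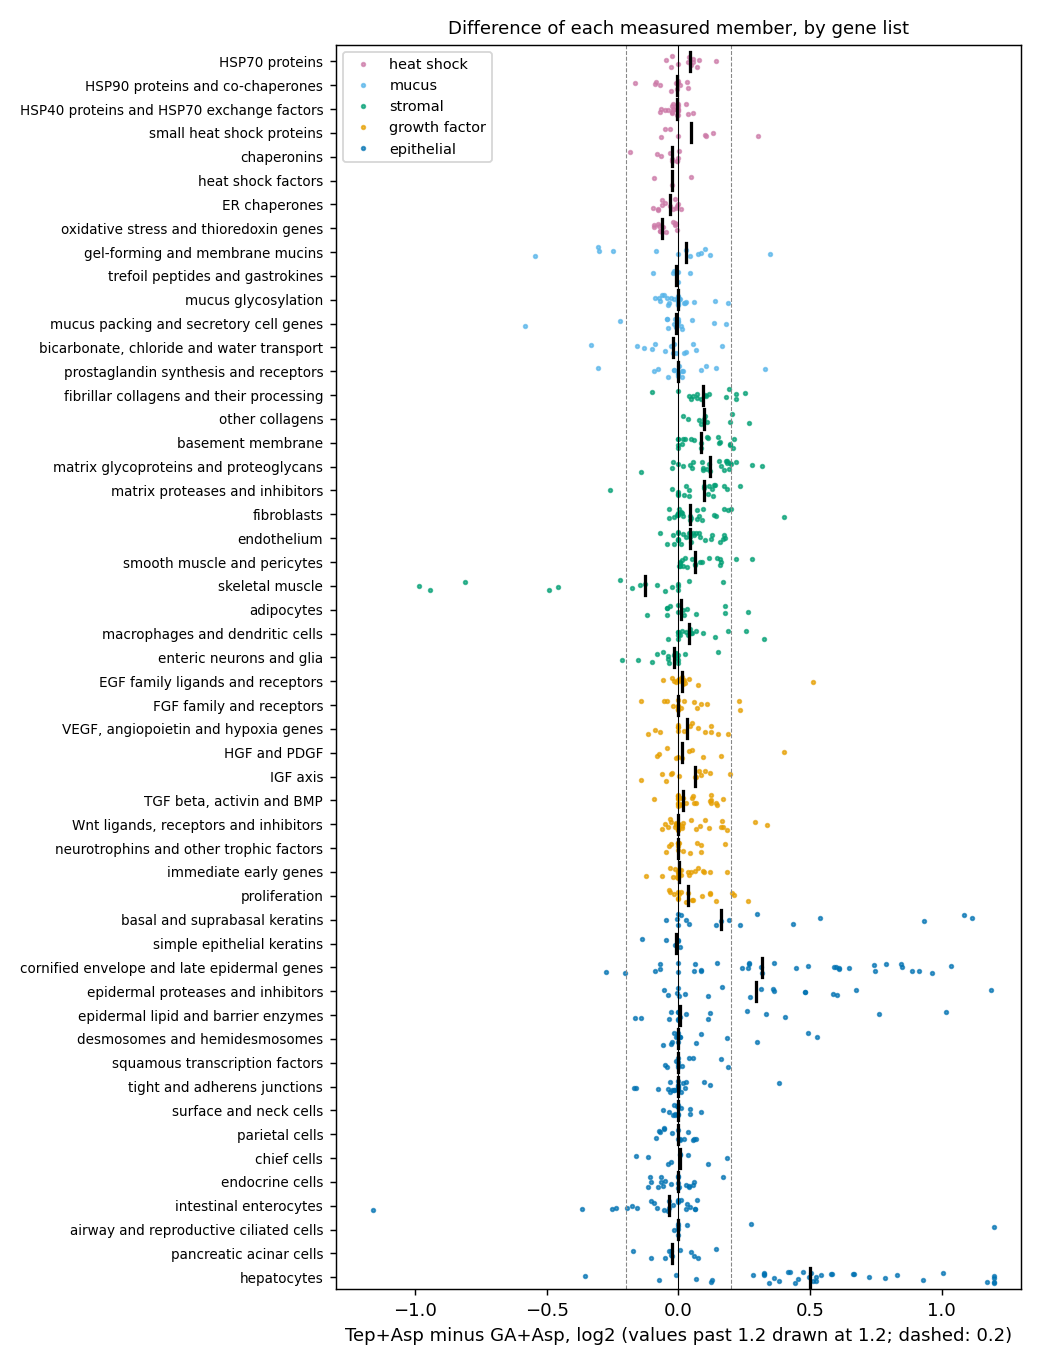
Each point is 1 measured gene at its log2 difference of Tep+Asp minus GA+Asp, in rows for 52 lists coloured by topic, with the median of each list as a black bar, differences past 1.2 drawn at 1.2 and dashed lines at 0.2 in both directions. The hepatocyte, cornified envelope and epidermal protease lists have medians to the right of 0.2, the matrix lists have medians near 0.1, and the heat shock lists cluster at 0.

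Genes outside the lists also divided into those of Tep+Asp and those of GA+Asp. Cbs, cystathionine beta synthase, measured 8.45, 8.50, 8.59, 8.08 and 8.50, and Ccl28, a mucosal chemokine, measured 8.41, 8.34, 8.36, 7.96 and 8.28. Both were lowest on Tep+Asp by the gap, and they and Ttr led that class. Aqp11, an intracellular aquaporin, measured 9.10, 9.07, 9.10, 8.79 and 9.005, and Cybrd1, a duodenal iron reductase, measured 11.02, 10.81, 10.61, 10.37 and 10.60, and for Cybrd1 both arrays without aspirin were above the 3 with it. On the other side, Tmem171, a membrane protein, measured 9.94, 10.10, 10.49, 10.10 and 10.10 and Zfp979, a zinc finger protein, measured 7.47, 7.30, 7.92, 7.52 and 7.32. GA+Asp was the highest array for both by the gap. Eno3, the muscle enolase, and Pygm, the muscle glycogen phosphorylase, measured 7.47, 7.47, 7.75, 7.38 and 7.47 and 7.76, 7.84, 8.17, 7.86 and 7.86, with GA+Asp highest as for the skeletal muscle genes above. Tmem267 was set apart on both sides, with 7.51, 7.49, 7.87, 7.21 and 7.51, Tep+Asp the lowest array and GA+Asp the highest. Ppargc1a, a coactivator of mitochondrial genes, measured 8.88, 9.18, 9.41, 9.05 and 9.22, and Sdhd, a subunit of succinate dehydrogenase, measured 11.70, 12.09, 12.17, 11.72 and 12.09. For Sdhd the low arrays were GA+GA and Tep+Asp, so GA+GA and LG21+GA, both without aspirin, differed as well.

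The line of 0.2 divided near-equal genes. Fn1, Foxf2 and Trex2 lay just inside it on the higher side and Cyp27a1, Tns4 and Ehd2 just outside, all 6 within 0.001 of it.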

How the data were processed

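Gut RNA was measured with the Affymetrix Mouse Gene 1.0 ST design, and each of 5 groups had 1 array. The authors deposited log2 RMA values, in which probes are background-corrected, quantile-normalized across arrays and summarized by probe set; per the labels they came from Expression Console, although a different Affymetrix program (for exon arrays) is named in the design text. The log2 scale was inferred from the range, 1.32 to 13.87. Software versions and genome build: not given in the sources used here. Value columns left unused numbered 0. The annotation names 1 gene for 21789 of 35557 probe sets, more than 1 for 1621 and none for 12147, and RefSeq (GRCm38.p6) held 21698 of the 21789. The probe set with the highest mean stood for each of the 999 genes with several.

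Differences, gaps and list medians were computed with pandas 2.3.3 and numpy 2.4.6 in Python 3.11.15, and the rescalings with limma 3.58.1 in R 4.3.3, with 3 iterations of cyclic loess. With 1 array per group there is no p-value and no interval, the number of arrays limits the precision, and depth has no counterpart on arrays. List counts run over all measured members and are set beside all 19938 genes. Of 924 list symbols, 877 genes were measured and 44 symbols were unmatched. A fold is given only where both values exceed that of Xist. The counting code was run on simulated arrays with small noise and planted shifts larger than both thresholds. That checks the code and not how reliable the calls in these data are.

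The members, lists and thresholds were chosen with earlier results of these data known. Genes were named by rule: the 15 largest differences each way, the 10 largest gaps each way for either array, up to 6 members per list and a set of well-known genes. Others were chosen after their values were seen, namely Acta2, Ada, Ahsg, Atp4a, Axin2, Cd44, Cdx2, Csf1r, Cyp27a1, Efemp1, Egfr, Ehd2, Foxj1, Gbp7, Ghrl, H2-Eb1, Lce3a, Lce3c, Lgr5, Osmr, P4ha2, Sis, Sprr1a, Tns4, Trex2 and Vil1. So was the median of GA+GA, LG21+GA and LG21+Asp as a reference level.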

Additional observations from a re-analysis of the deposited data

How the results depend on the processing

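No paired analysis was possible because each group has 1 array, and for the same reason no replicate could be left out. The counts follow the thresholds. Genes higher in Tep+Asp numbered 143, and 557 with no level filter, 52 with the filter at the 75th percentile, 37 at 1.5-fold, 8 at 2-fold and 613 at 0.1 log2. Genes lower numbered 118, and 337, 57, 4, 1 and 785 under the same settings. Tep+Asp was the highest array for 299 genes, and for 571 with no filter, 134 at the 75th percentile, 58 with a gap of 0.2 and 1713 with any gap. It was the lowest for 68, and for 353, 30, 7 and 1373, and for 116 when the LG21+Asp array was left out of the comparison. GA+Asp was the highest for 349, and for 574, 147, 28 and 3353, but for 228 after quantile normalization and 216 after cyclic loess. It was the lowest for 150, and for 925, 34, 41 and 866. Rescaling also moved the share of higher genes among those past 0.2, which was 54.8% in the deposited values, 62.1% after quantile normalization and 64.1% after cyclic loess. Of the 143 higher genes, 141 and 143 remained so after quantile normalization and cyclic loess, and of the 118 lower genes 98 and 97 did. Leaving out the hepatocyte and squamous genes, a choice made after seeing the data like the left-out arrays, kept all 6 counts within 1.5 times.

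The mean in place of the median raised the lists of basal and suprabasal keratins to 0.30, lipid and barrier enzymes to 0.16, ciliated cells to 0.19 and hepatocytes to 0.64, and brought skeletal muscle to -0.25. The members past the level filter gave 0.75 for the cornified envelope, 0.60 for the epidermal proteases and -0.29 for skeletal muscle. The other 252 list values under the 5 alternatives moved by less than 0.1 log2. For the genes named in the text, all 429 differences under another probe set rule, quantile normalization or cyclic loess stayed within 0.1 log2 of the reported value. Signal over background could not be judged per probe set, since detection calls were not used here.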

Other observations

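A few groups outside the lists, put together after their values had been seen, are given here beside all genes. Of 8 guanylate binding proteins, interferon-induced GTPases, 5 were higher in Tep+Asp by at least 0.2, against 2.79% of all genes, and the median difference was 0.33, but 2 of the 8 passed the level filter. Tep+Asp was the highest array for 3 of the 8 and the highest by the gap for 2, against 14.3% and 2.86% of all genes. For the others LG21+GA, which had no teprenone, was the highest. The median level of the 8 was 7.05 on Tep+Asp, 7.04 on LG21+GA and 6.80 on GA+Asp. Gbp7, at which Tep+Asp stood apart, measured 7.67, 7.90, 7.67, 8.15 and 7.67 on the arrays, in the same order as above. All 9 MHC class II genes were above 0, where 34.6% of all genes were, with a median of 0.092, and for H2-Eb1, an antigen-presenting chain, GA+Asp was the lowest array with values of 8.16, 8.52, 7.57, 8.31 and 8.02.

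Of 31 C/D box small nucleolar RNAs, which guide methylation of ribosomal RNA, 14 were lower in Tep+Asp by at least 0.2, against 1.69% of all genes, with a median of -0.15, and GA+Asp was the highest array by the gap for 10, against 2.88%. Of 20 H/ACA box small nucleolar RNAs 3 were lower and the median was -0.064. Of 34 subunits of respiratory complex I, 31 were below 0, where 51.8% of filtered genes were, with a median of -0.059 and 3 lower by 0.2. After quantile normalization and cyclic loess 29 and 27 of the 34 were below 0, with medians of -0.045 and -0.041 and 1 lower by 0.2 under each. The 57 ribosomal protein genes had a median of -0.026 with 0 past 0.2, where 4.48% of all genes were past it in either direction. Ada, adenosine deaminase, which the lists did not hold, measured 8.34, 8.46, 8.58, 9.18 and 7.26 and was highest on Tep+Asp and lowest on LG21+Asp. Cd44, a receptor for hyaluronan, measured 7.87, 7.86, 7.86, 8.14 and 7.83, and Osmr, the receptor of oncostatin M, measured 8.25, 8.16, 8.40, 8.72 and 8.40.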
